A study of Mus musculus with 6 samples.

Results

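Lipofibroblasts are lipid-laden fibroblasts that lie beside alveolar type 2 cells and store neutral lipid that those cells use for surfactant. Epithelial cells release parathyroid hormone-related protein, encoded by Pthlh, and its receptor on the fibroblasts, encoded by Pth1r, signals through cyclic AMP and raises the nuclear receptor Pparg and the lipid droplet coat protein Plin2. The other genes of the set take up or carry fatty acids (Lpl, Cd36, Fabp4, Fabp5) or mark the lung fibroblast lineage in which these cells arise (Tcf21). The set was described in fetal mouse lung with and without epithelial Smad1, by every probe set whose platform gene symbol was 1 of these 9 genes. There were 16 such probe sets of 45037, and they covered 8 of the 9 genes. No probe set used here carried the symbol or the gene identifier of Pthlh, so the ligand was not analysed here, and the signalling arm is described from its receptor onward.

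The left lung lobe was profiled at E18.5 in 3 embryos with a Smad1 conditional knockout (Smad1 CKO) restricted to the lung epithelium and in 3 wild type embryos, all of strain C57/BL6. Each CKO animal had a wild type partner, and Affymetrix Mouse430_2 arrays were used, 1 for each animal. Neither the Cre line that removed Smad1 nor the deleted part of the gene is given in the sources used here. Values are probe set intensities on a linear scale, and differences are log2 values of CKO minus wild type, with the SD over the 3 pairs. A probe set counted as called at an adjusted p under 0.05 (limma with the pair as a block, Benjamini-Hochberg over all probe sets). The p-values rest on the spread of the differences within these 3 pairs, which limma combines with the spread of all probe sets.

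The array of Smad1 CKO 3 stood apart from the other 5. Its 18S ribosomal RNA control signal was 2887, against 267 and 283 in the other CKO lungs and 243 to 297 in wild type lungs, and its beta-actin control signal was 5820, against 20900.4 and 19088 in the other CKO lungs and 18445 to 20301 in wild type lungs. The 15013 brightest probe sets hold 13 of the 16 described here, and their median differences in pairs 1 to 3 were -0.30, -0.023 and -0.96. A value near -0.96 in pair 3 was therefore typical of a bright probe set. Values of single pairs, or of pairs 1 and 2 alone, are given beside the means over 3 pairs. Pair 1 also holds a difference in sex-linked genes: the log2 level of Xist was 10.95 in CKO 1, against 6.34 and 7.70 in the other CKO lungs and 6.07 to 6.62 in wild type lungs. The 3 probe sets of Smad1 itself averaged between -0.28 and 0.056, and between 0.32 and 0.39 without pair 3. The deleted part is unknown and the lobe also holds cells in which the gene was not targeted, so these values do not check the labels.

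Fabp5 was lower in every CKO lung than in any wild type lung by both of its probe sets. Fabp4, its close relative, was higher in CKO lungs 1 and 2 than in their partners by its bright probe sets. The other 6 genes, each taken by the probe set with the highest mean, lay between -0.42 and 0.43 in pairs 1 and 2, and all 6 were low in CKO 3.

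Across all probe sets 0 of the 16 were called in either direction (limma), against 0.00222% called lower and 0% called higher among all probe sets and 0.00666% called lower among the brightest. At an unadjusted p under 0.05, 3 of the 16 were lower, against 8.4% of all probe sets and 16.2% of the brightest, and 1 was higher, against 4.29% of all and 1.43% of the brightest. The 3 were both probe sets of Fabp5 and 1 of Cd36. Of the 16, 7 were lower in all 3 pairs, against 24.1% of all probe sets and 47% of the brightest, and 1 was higher in all 3 pairs, against 22.7% and 4.45%. The groups did not overlap in 3 probe sets that were lower, against 5.36% of all probe sets and 10.1% of the brightest, and in 1 that was higher, against 4.7% and 1.01%. Set against the brightest probe sets, the first 2 counts of lower values lie near the background. In each count with 1 higher, that probe set was the dimmest of Fabp4. It is not among the brightest, so their shares do not apply to it. Fewer of the brightest were higher, so among the remaining probe sets each share lies above that of all. The 15013 dimmest probe sets, which include it, had a median difference of 0.17.

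Without pair 3, 0 of the 16 were called (0.0533% of all probe sets lower and 0.00888% higher), while at an unadjusted p under 0.05 the limma fit had 2 lower (5.81% of all) and 2 higher (3.01%). After cyclic loess normalization it had 3 lower (7.45%) and 1 higher (6.73%) at that level, and 0 called. With the 8 genes each taken by the probe set with the highest mean, the median difference was -0.66, with -0.20, -0.0056 and -1.65 in pairs 1 to 3.

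**Figure D1:**
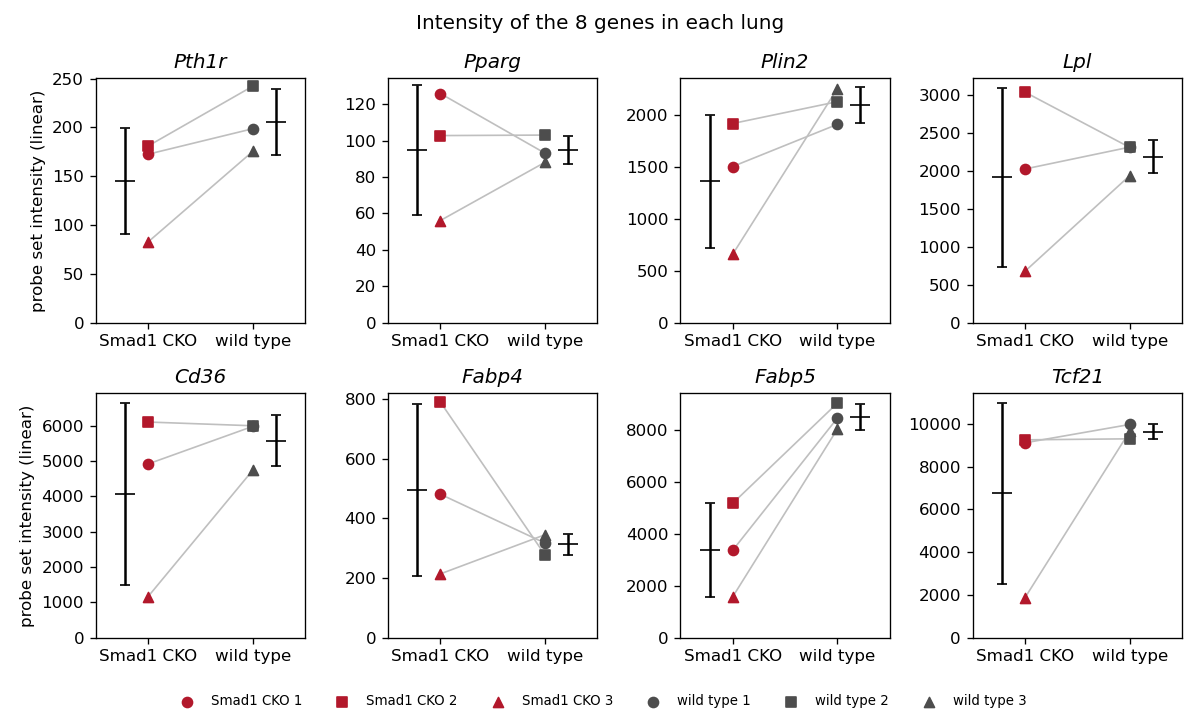
Intensity on a linear scale of the probe set with the highest mean for each of 8 genes, with Smad1 CKO lungs on the left and wild type lungs on the right of each panel, lines joining pairs, and bars for the mean and SD of 3 lungs. CKO 3 is the lowest array in every panel, and in the Fabp5 panel all 3 CKO lungs (1566 to 5165) lie below all 3 wild type lungs (8023 to 9025).

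Pth1r is the receptor through which the epithelial ligand acts on the fibroblast. Its intensity was 172, 181 and 82.6 in CKO lungs 1 to 3, against 199, 242 and 175 in wild type lungs 1 to 3. Each CKO lung was below its own partner, but the groups overlapped, since wild type lung 3 lay below CKO lung 2. On average it was -0.57 ± 0.46 (SD, 3 pairs; 95% interval -1.15 to 0.02), and it did not pass (limma, adjusted p = 0.367). Pairs 1 and 2 gave -0.20 and -0.42, and pair 3 gave -1.08, close to the median of bright probe sets in that pair. In a whole lobe, fewer cells of a type and less RNA per cell cannot be told apart, here and below.

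The relay behind the receptor was followed through 29 genes for the other parathyroid hormone genes, G proteins, adenylyl cyclases, protein kinase A subunits, phosphodiesterases and arrestins. None was called. At an unadjusted p under 0.05 (limma), 8 were lower (8.4% of all probe sets, 16.2% of the brightest) and 0 higher (4.29% and 1.43%). In all 3 pairs 15 were lower and 4 higher (22.7% of all probe sets, 4.45% of the brightest). As a share, the count of 15 lies near the 47% of the brightest probe sets. Their median was -0.40, with -0.28, -0.13 and -0.67 in pairs 1 to 3, and 0.014 after cyclic loess normalization, so its direction was not settled. Pde4b, a phosphodiesterase that degrades cyclic AMP, was at -0.99 ± 0.43 with -0.76, -0.71 and -1.48 in the 3 pairs. Pde4d, another enzyme of that family, was at -0.69 ± 0.24, and the adenylyl cyclase gene Adcy4, which makes cyclic AMP, was at -0.90 ± 0.38. The beta-arrestin gene Arrb1, whose product uncouples receptors from G proteins, was at -0.66 ± 0.29. Without pair 3 these 4 genes lay between -0.74 and -0.54, and after cyclic loess normalization between -0.57 and -0.20. The adenylyl cyclase genes did not move together. Adcy5 and Adcy3 were higher in all 3 pairs, at 0.36 ± 0.071 and 0.36 ± 0.15. Without pair 3 they were at 0.38 and 0.27, and after cyclic loess normalization at 0.73 and 0.71. Probe sets of Pth, Pth2r and Adcy8 lay below the array median on all 6 arrays.

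Pparg encodes the nuclear receptor that drives lipid storage genes in fat cells and lipofibroblasts. Its single probe set read 126, 103 and 56.1 in CKO lungs 1 to 3, against 93.1, 103 and 88.1 in wild type lungs 1 to 3. CKO 1 was the highest of the 6 arrays and CKO 3 the lowest, while CKO 2 and its partner read almost the same, so the groups overlapped fully. The pair differences were 0.43, -0.0038 and -0.64, and the mean was -0.072 ± 0.54 (SD, 3 pairs; limma, adjusted p = 0.877). Its 95% interval, -0.70 to 0.56, leaves room for a change in either direction.

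Among 15 relatives, partners and coregulators of PPAR, none was called, and the median was -0.25 (0.087 after cyclic loess normalization). At an unadjusted p under 0.05 (limma), 4 of the 15 were lower, against 8.4% of all probe sets and 16.2% of the brightest, and 0 were higher. In all 3 pairs 7 were lower (24.1% and 47%) and 2 higher (22.7% and 4.45%). The groups did not overlap in 2 that were lower (5.36% and 10.1%) and in 1 that was higher (4.7% and 1.01%). Cebpa, a transcription factor of fat cells and of type 2 cells, was at -0.95 ± 0.45, with all 3 CKO lungs below all 3 wild type lungs. Cebpd, a related factor, was at -0.71 ± 0.55, and the coactivator genes Med1 and Ncoa2 were at -0.58 ± 0.29 and -0.72 ± 0.64. Without pair 3 Cebpa was at -0.69 and the other 3 lay between -0.43 and -0.41, and after cyclic loess normalization Cebpa was at -0.40 and the others lay between -0.18 and -0.099. Another coactivator gene, Ncoa3, went the other way, at 0.45 ± 0.47, with all 3 CKO lungs above all 3 wild type lungs. It was at 0.18 without pair 3 and at 0.66 after cyclic loess normalization. Rxrg, a PPAR partner, was the other gene higher in all 3 pairs, at 0.38 ± 0.42. Of 14 textbook PPAR targets 8 were measured, and their median was 0.17, with 0.064, 0.090 and 0.13 in the 3 pairs and -0.25 after leaving out the 15013 dimmest probe sets. Pdk4, a kinase that restrains glucose oxidation, was at -0.71 ± 0.37 and at -0.55 without pair 3, while Cidec, Aqp7, Pck1 and Adipoq lay below the array median on all 6 arrays.

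Plin2 coats lipid droplets and is the usual marker of lipofibroblasts. Its intensity was 1505, 1919 and 658 in CKO lungs 1 to 3, against 1911, 2130.0 and 2256 in wild type lungs 1 to 3. CKO 1 and CKO 3 lay below every wild type lung, and CKO 2 lay just above wild type lung 1. The mean of the pairs was -0.76 ± 0.89 (SD, 3 pairs; limma, adjusted p = 0.367), and its 95% interval ran from -1.62 to 0.11. The pairs gave -0.35, -0.15 and -1.78, so the mean was carried by pair 3, and without it the value was -0.25 (limma, adjusted p = 0.722). Cyclic loess normalization gave -0.19.

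Lpl encodes lipoprotein lipase, which frees fatty acids from circulating triglyceride. Its brighter probe set read 2023, 3036 and 675 in CKO lungs 1 to 3, against 2311, 2308 and 1935 in wild type lungs 1 to 3. CKO 2 was the highest array and CKO 3 the lowest. The difference was -0.44 ± 0.98 (SD, 3 pairs; limma, adjusted p = 0.499), from -0.19, 0.40 and -1.52 in the pairs. It turned to 0.10 without pair 3, to 0.14 after cyclic loess and to 0.035 after quantile normalization. The dimmer probe set gave -0.65 ± 0.87, with -0.42, 0.091 and -1.60, so both probe sets were higher in CKO 2 than in its partner.

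Cd36 encodes a fatty acid transporter that capillary endothelium and macrophages carry as well as lipid-storing cells. Its brightest probe set read 4921, 6110 and 1161 in CKO lungs 1 to 3, against 5986, 6004 and 4744 in wild type lungs 1 to 3. CKO 2 was the highest array and CKO 3 the lowest, and the mean difference was -0.76 ± 1.11 (SD, 3 pairs; limma, adjusted p = 0.375). Without pair 3 this probe set was at -0.13, and after cyclic loess normalization at -0.12. The second bright probe set gave -0.72 ± 0.97, and -0.17 without pair 3. The third and dimmest read 109, 227 and 72.4 in CKO lungs, against 238, 240.0 and 185 in wild type lungs, and was lower in all 3 pairs, at -0.85 ± 0.67 (limma, adjusted p = 0.367), and at -0.60 without pair 3. In pair 1 the probe sets disagreed in size, with -1.12 from the dimmest and -0.28 and -0.37 from the other two.

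Upstream sequences of Plin2 and Cd36 are shown because both are lipid handling genes of the set with a single window in the RefSeq promoter table (GRCm38.p6). Of the 9 genes, 6 had an entry. Each run is the 250 bases before the annotated start, on the strand of the gene. The Plin2 window is chr4:86670060-86670309 on the minus strand, and the Cd36 window is chr5:17835897-17836146 on the minus strand. Capitals mark matches on either strand to AGGTCA, the half-site of nuclear receptors such as PPAR, and to GTCTG, the Smad box.

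Plin2: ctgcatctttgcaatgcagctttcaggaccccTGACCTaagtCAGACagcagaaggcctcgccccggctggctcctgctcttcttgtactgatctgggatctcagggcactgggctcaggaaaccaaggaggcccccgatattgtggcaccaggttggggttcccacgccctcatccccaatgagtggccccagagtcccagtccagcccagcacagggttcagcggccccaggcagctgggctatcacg

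Cd36: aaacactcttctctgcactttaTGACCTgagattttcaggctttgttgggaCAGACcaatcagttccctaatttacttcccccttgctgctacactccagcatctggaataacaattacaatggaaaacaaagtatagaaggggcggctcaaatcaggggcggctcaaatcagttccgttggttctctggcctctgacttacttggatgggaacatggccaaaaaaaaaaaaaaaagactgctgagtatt

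Both windows hold 1 match to each motif, and the matches do not overlap. The half-site match begins 218 bases before the start in Plin2 and 228 bases before it in Cd36, and the Smad box match begins 208 and 199 bases before it. Of 32851 windows in the table, 14.0% held AGGTCA and 42.2% held GTCTG, so the second match is common. GGCGCC, a GC-rich Smad element held by 9.59% of windows, and TGACG, the cyclic AMP half-site held by 17.8%, were also searched on both strands and were in neither window. A match is a description of letters and not of binding.

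Fabp5 encodes a fatty acid binding protein of epithelial and other cells, and it is the gene of the set with the clearest difference. Its brighter probe set read 3357, 5165 and 1566 in CKO lungs 1 to 3, against 8448, 9025 and 8023 in wild type lungs 1 to 3. Its other probe set read 1599, 2199 and 494 in CKO lungs, against 5053, 5070 and 4569 in wild type lungs. In both, the highest CKO lung was far below the lowest wild type lung. The brighter probe set gave -1.50 ± 0.79 (SD, 3 pairs), a 2.82-fold lower intensity, and the other gave -2.02 ± 1.05, a 4.06-fold lower intensity. Their 95% intervals were -2.29 to -0.70 and -3.01 to -1.04. Adjusted over all probe sets neither was called (limma, adjusted p = 0.367 for both), and the unadjusted limma p was 0.00382 and 0.00249.

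The Fabp5 difference did not rest on pair 3. Pairs 1 and 2 gave -1.33 and -0.80 for the brighter probe set and -1.66 and -1.20 for the other, where the median bright probe set stood at -0.30 and -0.023. Without pair 3 the differences were -1.07 and -1.43 (limma, adjusted p = 0.346 and 0.118), which is 2.10-fold and 2.70-fold lower. Without pair 1, whose partners differ in sex-linked genes, they were -1.58 and -2.21. After cyclic loess normalization they were -0.84 and -1.42, and no alternative called either probe set.

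Most markers of alveolar type 2 cells were lower in the same lungs as Fabp5. Of 9 measured, 8 were lower in all 3 pairs (24.1% of all probe sets, 47% of the brightest) and 7 had groups that did not overlap (5.36% and 10.1%), with a median of -1.57 and -1.10, -0.84 and -2.56 in the pairs. Their summed intensity was 13339.9 to 47237 in CKO lungs and 70719 to 80712 in wild type lungs, and none lay below the array median on all 6 arrays. The surfactant protein gene Sftpa1 was at -5.17 ± 1.04, and Lpcat1, an enzyme of surfactant lipid synthesis, was at -2.28 ± 0.58. Slc34a2, the phosphate transporter of these cells, was at -1.74 ± 0.71, and Abca3, the lipid pump of lamellar bodies, was at -1.88 ± 0.78. Without pair 3 these 4 lay between -4.58 and -1.34. The markers Napsa (-0.028 and -0.021 in pairs 1 and 2) and Sftpd (0.0072 and 0.094) lay near 0 there. The 7 general epithelial markers had medians of -0.065, 0.11 and -1.44 in the pairs, and their sums were 4199 to 14495 in CKO lungs and 13425 to 13831 in wild type lungs. Alveolar type 1 markers, 8 in number, were all lower in all 3 pairs as well, and 7 had groups that did not overlap. Their median was -0.86, with -0.34, -0.30 and -1.75 in the pairs, -0.31 without pair 3 and -0.23 after cyclic loess normalization. Lower values were thus not particular to type 2 markers, nor to epithelial markers. The 10 endothelial markers, described below, had medians of -0.66 and -0.55 in pairs 1 and 2. The part of type 2 cells or of other cells in the Fabp5 difference was not tested.

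Fabp4 encodes the fatty acid binding protein of fat cells, macrophages and some capillaries. Its brightest probe set read 481, 790.0 and 214 in CKO lungs 1 to 3, against 317, 277 and 345 in wild type lungs 1 to 3. CKO 2 and CKO 1 were the highest arrays and CKO 3 the lowest. The pairs gave 0.60, 1.51 and -0.69, with a mean of 0.47 ± 1.11 (SD, 3 pairs; limma, adjusted p = 0.505). A second probe set ran the same way, at 0.13, 1.54 and -0.78. Without pair 3 the brightest probe set was 2.08-fold higher in CKO lungs, at 1.06 (limma, adjusted p = 0.445), and cyclic loess normalization put it at 0.88 with a 95% interval of 0.22 to 1.55 (limma, adjusted p = 0.336). Without pair 2 it was at -0.044, from 0.60 in pair 1 and -0.69 in pair 3, so the sign of its mean depended on the pairs kept. Of all probe sets, 5.3% were likewise higher in pairs 1 and 2 and lower in pair 3.

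The other 2 probe sets of Fabp4 were dim. One read 29.2, 43.0 and 36.4 in CKO lungs 1 to 3, against 24.5, 24.7 and 23.0 in wild type lungs 1 to 3. All 3 CKO lungs were above all 3 wild type lungs, at 0.55 ± 0.27 (SD, 3 pairs; limma, adjusted p = 0.367), and every value lay below its array's median. Among the 15013 dimmest probe sets the median differences were 0.14, 0.019 and 0.28 in the pairs. The last probe set averaged 0.30 ± 0.59 and was not higher in pair 1.

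Fabp4 and Fabp5 are neighbours on chromosome 3 in the GRCm38.p6 gene table, with the protein-coding genes Pmp2 and Fabp9 of the same family between them and Fabp12 just beyond. Within each pair the difference of Fabp5 minus that of Fabp4 was -1.93, -2.32 and -1.67 on the log2 scale, with a mean of -1.97 ± 0.33 (SD, 3 pairs) that corresponds to 3.92-fold. This contrast was chosen after the values were seen and has no test, and it shows unequal change and not which gene changed. The same contrast was -0.74 ± 0.22 for Fabp5 against Plin2 and -1.06 ± 0.19 against Lpl, each negative in all 3 pairs, but -0.66 ± 0.62 against Tcf21, where pair 3 gave 0.017. Fabp12 was at -1.46 with -1.61, -1.51 and -1.26 in the pairs, and Pmp2, also called myelin P2, was at 0.72 with 0.73, 0.25 and 1.20. These 2 genes are named after their values were seen. Fabp12 had a mean intensity of 41.1 in CKO lungs and 115 in wild type lungs, and the CKO mean lay under the array medians.

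**Figure D2:**
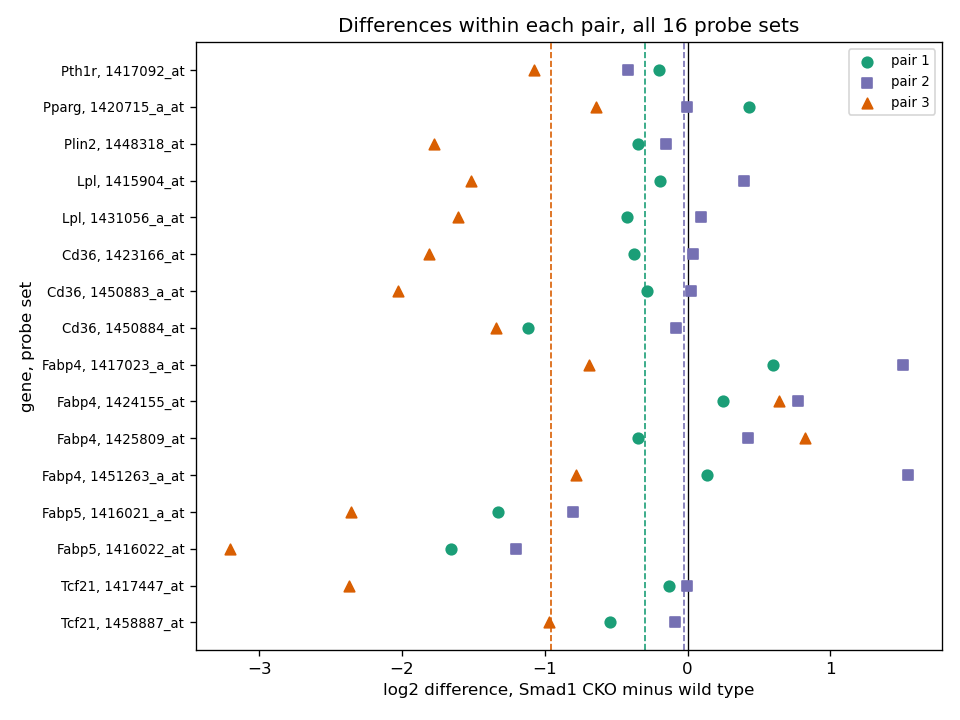
Log2 difference of Smad1 CKO minus wild type within each pair for all 16 probe sets, 1 row each, with symbols for pairs 1 to 3 and dashed lines at the median of the 15013 brightest probe sets in the same pair. The Fabp5 rows lie left of the dashed line of their pair in all 3 pairs, and in pairs 1 and 2 the genes other than Fabp4 and Fabp5 lie between -0.54 and 0.43 apart from -1.12 for the dimmest Cd36 probe set.

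Other genes that bring in, bind or activate fatty acids gave a median of -0.24 over 22 measured (0.057 after cyclic loess normalization). Of the 22, 5 were lower in all 3 pairs (24.1% of all probe sets, 47% of the brightest) and 7 were higher (22.7% of all). Fabp1, Fabp2, Fabp6, Slc27a5 and Lep, which are among the 7, lay below the array median on all 6 arrays. None of the 22 was called. At an unadjusted p under 0.05 the limma fit had 2 lower (8.4% of all probe sets, 16.2% of the brightest) and 1 higher (4.29% of all). Lepr, the receptor for leptin, was at -1.12 ± 0.75 with -1.13, -0.37 and -1.87 in the pairs. Slc27a3, a fatty acid transport protein, was at -0.86 ± 0.48 and at -0.58 without pair 3, and its groups did not overlap. Over the 22 genes this held for 1 that was lower (5.36% of all probe sets, 10.1% of the brightest) and 1 that was higher (4.7% of all). Lep, the hormone that lipofibroblasts can release towards type 2 cells, lay below the array median on all 6 arrays. Gpihbp1, which holds lipoprotein lipase on capillary walls, was at -0.24, from -0.19, 0.012 and -0.55 in the pairs.

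The 22 measured genes of lipid droplets and triglyceride turnover had a median of -0.29, with -0.25, -0.052 and -0.58 in pairs 1 to 3. None was called, and after cyclic loess normalization the median was 0.039. At an unadjusted p under 0.05 (limma), 4 of the 22 were lower (8.4% of all probe sets, 16.2% of the brightest) and 0 higher (4.29% and 1.43%). Gpam, the acyltransferase that begins glycerolipid synthesis, was at -1.24 ± 0.62, and its groups did not overlap. Mgll, which splits monoglycerides, was at -1.04 ± 0.75, and Fitm2, a protein of droplet formation, was at -0.54 ± 0.20, with separate groups in both cases. Over the 22 genes the groups did not overlap in 3 that were lower (5.36% of all probe sets, 10.1% of the brightest) and in 0 that were higher (4.7% and 1.01%). Lpin1, a phosphatidate phosphatase, was at -0.71 ± 0.52. Without pair 3 Gpam was at -0.90, Mgll at -0.61, and Fitm2 and Lpin1 both at -0.48.

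Cd36, Lpl and Fabp4 are also used by endothelium and macrophages, and Fabp4 by fat cells, so the markers of these types are given beside them. Of 10 endothelial markers 9 were lower in all 3 pairs (24.1% of all probe sets, 47% of the brightest). At an unadjusted p under 0.05 (limma), 8 were lower (8.4% and 16.2%), and 6 had groups that did not overlap (5.36% and 10.1%). Their median was -0.94, with -0.66, -0.55 and -1.51 in the pairs, -0.63 without pair 3 and -0.41 after cyclic loess normalization. Their sums were 4958 to 14096 in CKO lungs and 15178 to 20907 in wild type lungs. In pair 1 the 3 probe sets of Cd36 lay between -1.12 and -0.28 and the 2 of Lpl at -0.42 and -0.19, and in pair 2 these 5 lay between -0.080 and 0.40. Of 10 macrophage markers 3 were lower in all 3 pairs (24.1% of all probe sets, 47% of the brightest) and 2 higher (22.7% of all). Their median was -0.17, but -0.0086 without pair 3 and 0.15 after cyclic loess normalization. Their sums were 3583 to 9537 in CKO lungs and 9776 to 15790.0 in wild type lungs. Of 6 measured fat cell markers 4 were higher in all 3 pairs (22.7% of all probe sets). Their median was 0.39, with 0.37 without pair 3 and 0.24 after cyclic loess normalization. Their sums were 275 to 408 in CKO lungs and 267 to 287 in wild type lungs. Adipoq, Cidec, Lep and Ucp1, which define fat cells, lay below the array median on all 6 arrays. Aif1 did so among the macrophage markers, and no endothelial marker did. Adipoq, Cidec and Lep were among the fat cell markers that were higher in all 3 pairs. The 15013 dimmest probe sets as a whole had a median of 0.17, so a small rise at such levels is not particular to fat cell markers. The part of these cells in the results was not tested.

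Tcf21 is a transcription factor of lung mesenchyme from which lipofibroblasts descend. Its brighter probe set read 9124, 9263 and 1864 in CKO lungs 1 to 3, against 9982, 9311 and 9656 in wild type lungs 1 to 3. The groups did not overlap, but CKO 2 missed wild type lung 2 by a margin smaller than the spread within wild type, and CKO 3 alone stood far below. The difference was -0.84 ± 1.33 (SD, 3 pairs; limma, adjusted p = 0.384), and it was -0.069 without pair 3 and -0.16 after cyclic loess normalization. The dimmer probe set read 200, 298 and 143 in CKO lungs 1 to 3, against 292, 317 and 281 in wild type lungs 1 to 3. It averaged -0.53 ± 0.44 (SD, 3 pairs; limma, adjusted p = 0.367). The 250 bases before its annotated start, chr10:22820144-22820393 on the minus strand in GRCm38.p6, are shown as the window of the set with the most Smad box matches, in capitals.

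Tcf21: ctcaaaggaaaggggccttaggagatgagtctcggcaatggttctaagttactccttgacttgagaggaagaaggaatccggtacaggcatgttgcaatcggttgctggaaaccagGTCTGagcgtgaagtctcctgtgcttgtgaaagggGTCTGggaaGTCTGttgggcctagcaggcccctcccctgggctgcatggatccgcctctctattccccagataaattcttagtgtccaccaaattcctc

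The window held 3 matches to GTCTG, which begin 134, 99 and 90 bases before the start, and none to the nuclear receptor, GC-rich or cyclic AMP motif. No match says only that these letters are not in this window.

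Further lipofibroblast markers were measured for all 10 listed genes, and their median was -0.52, with -0.32, -0.13 and -1.02 in the pairs and 0.0092 after cyclic loess normalization. None was called, and 6 were lower in all 3 pairs (24.1% of all probe sets, 47% of the brightest). At an unadjusted p under 0.05 (limma), 3 were lower (8.4% and 16.2%) and 0 higher (4.29% and 1.43%). Slc7a10, an amino acid transporter, was at -0.76 ± 0.27, the growth factor gene Wnt2 was at -0.72 ± 0.63, and Pdgfra, a receptor of alveolar fibroblast precursors, was at -0.92 ± 0.93. Without pair 3 these were at -0.65, -0.35 and -0.40, and after cyclic loess normalization at -0.43, -0.23 and -0.35. The 9 mesenchymal transcription factors had a median of -0.48, with -0.33, -0.44 and -1.01 in the pairs and -0.088 after cyclic loess normalization. None was called. At an unadjusted p under 0.05 (limma), 5 were lower (8.4% and 16.2%) and 0 higher (4.29% and 1.43%). In all 3 pairs 6 of the 9 were lower (24.1% and 47%) and 2 higher (22.7% and 4.45%). The groups did not overlap in 2 that were lower (5.36% and 10.1%) and in 1 that was higher (4.7% and 1.01%). Of the 9, Foxf2 was at -0.99 ± 0.44 with separate groups, Prrx1 was at -0.70 ± 0.41, and Foxf1 and Tbx4 were at -0.86 ± 0.72 and -0.82 ± 0.77. Without pair 3 Foxf2 was at -0.76, Prrx1 at -0.47, Foxf1 at -0.44 and Tbx4 at -0.38. Among 12 genes of fibroblasts and their matrix the median was -0.70, with -0.25, -0.042 and -1.73 in the pairs, and -0.094 without pair 3. The 7 smooth muscle genes had a median of -0.47, with -0.16, 0.12 and -1.38 in the pairs, and the median was -0.032 without pair 3 and 0.078 after cyclic loess normalization. In pairs 1 and 2 the 8 genes of the set (-0.20 and -0.0056) thus gave medians near those of fibroblast genes (-0.25 and -0.042). The brightest probe sets as a whole gave similar medians (-0.30 and -0.023), so this likeness is not particular to fibroblast genes. The difference between these lists was not tested.

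**Figure D3:**
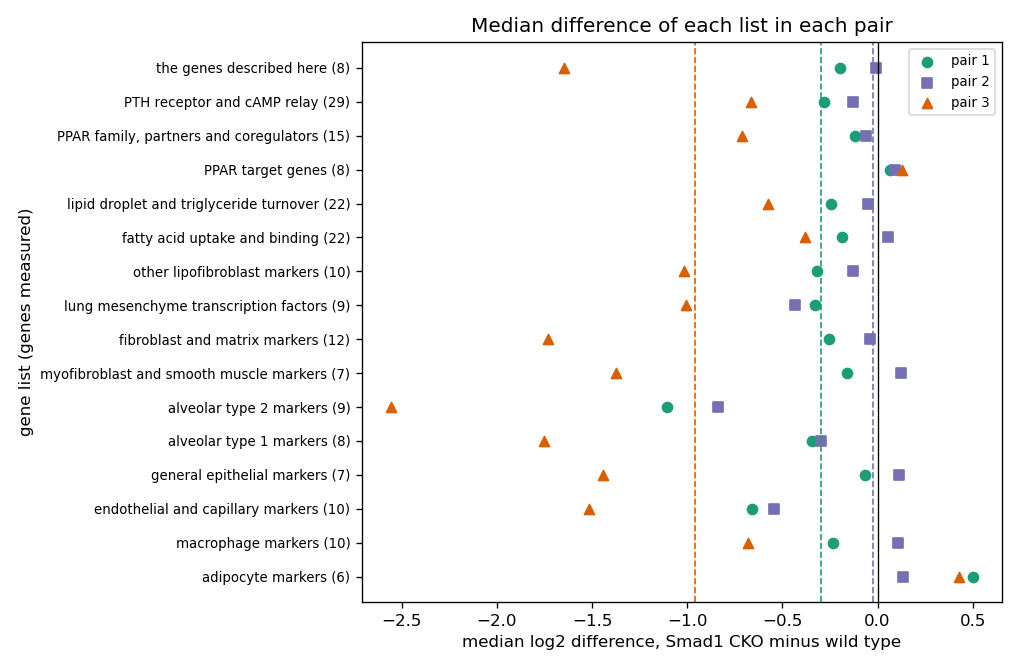
Median log2 difference of Smad1 CKO minus wild type for each gene list in pairs 1 to 3, with the number of genes measured in brackets and dashed lines at the median of the 15013 brightest probe sets in the same pair. The alveolar type 2 markers lie lowest in each pair, and the genes described here stand at -0.20 and -0.0056 in pairs 1 and 2 and at -1.65 in pair 3.

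Levels of the 8 genes followed each other over the 6 arrays mainly through CKO 3. Over 6 arrays, the 28 pairs of genes had Pearson r between 0.17 and 0.99 with a median of 0.86, and with CKO 3 left out they ran from -0.87 to 0.87 with a median of 0.084. Lpl and Cd36 were at 0.98 over 6 arrays and 0.81 over 5, while Fabp4 and Fabp5 were at 0.17 over 6 and -0.69 over 5. Among 11440 other genes, those most like Pth1r over the 6 arrays were Slc30a4, Mfge8 and Fam114a1 (r of 0.999, 0.999 and 0.997). Those most like Plin2 were Cacybp, Cdk6 and Atp6v1g1 (0.999, 0.998 and 0.998), and those most like Pparg were B9d1, Tex264 and Tsc22d4 (0.995, 0.990 and 0.990). These points share 6 arrays, among them CKO 3, so the values are descriptions with no test.

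The effect of the outlying array on each gene can be read from the plot of the differences under 3 settings. Intervals of Fabp5 lay below 0 in the deposited values and after cyclic loess, and its mean of pairs 1 and 2 was lower too. For Fabp4 the interval lay above 0 after cyclic loess only. For the other 6 genes both intervals included 0. All this holds for the probe set with the highest mean of each gene. The dimmest Cd36 probe set had intervals below 0 in both settings, -1.56 to -0.13 and -1.15 to -0.078. The dimmest Fabp4 probe set had an interval above 0 in the deposited values only, 0.054 to 1.05.

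**Figure D4:**
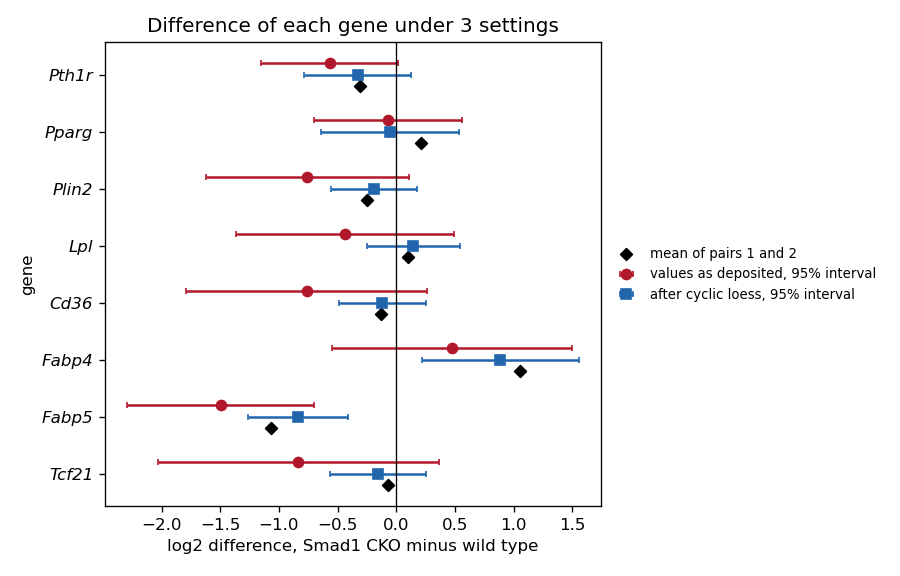
Log2 difference of Smad1 CKO minus wild type for 8 genes by the probe set with the highest mean, as circles for the deposited values and squares after cyclic loess (lines are 95% intervals of the limma fit), and as diamonds for the mean of pairs 1 and 2. Fabp5 stands at -1.50, -0.84 and -1.07, and Fabp4 at 0.47, 0.88 and 1.06.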

How the data were processed

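RNA of the left lung lobe of 6 embryos was read, 1 array per embryo. Per the submitters' processing notes the authors used RMA, and the deposited intensity values are linear, as judged from their range. The sources used here give neither the RMA software nor its settings. Values were turned into log2(value + 1), which shrinks differences of dim probe sets a little, and 64 control probe sets were left out. By the platform annotation 34945 probe sets had 1 symbol, 932 had several and 9160 had none listed. All 16 probe sets described matched the gene table by identifier, with 0 changed symbols.

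The fit used limma 3.58.1 under R 4.3.3, with lmFit, eBayes, a two-sided test and the pair as a fixed block, adjusted by Benjamini-Hochberg over 45037 probe sets. The design text describes pairs, and partners carry the same letter in their array names. As a check, deviations from group means correlated at 0.258, 0.604 and 0.597 within pairs and from -0.62 to 0.215 between arrays of different pairs, across probe sets, so pair 1 stood out little. The smallest root mean square distance between arrays was 0.227 (log2), so none was a copy. An exact test within 3 pairs cannot go below 0.25 and was not used. The highest mean picks the probe set that stands for a gene. The fit was tested on simulated data. The text names the 9 genes, some or all of the 4 genes of each list with the smallest p, and the 3 genes most like each of Pth1r, Pparg and Plin2. Gpihbp1, Napsa, Sftpd, Adcy5, Adcy3, Ncoa3, Rxrg, the dim markers and the neighbours of Fabp4 were added after their values were seen. The members and lists were chosen with earlier results of these data known. Promoter sequences are from RefSeq. Only 3 arrays of each genotype limit the precision.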

Additional observations from a re-analysis of the deposited data

How the results depend on the processing

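No probe set of the 8 genes was called with the deposited values or in any of the 11 alternatives, which left out pairs or single CKO arrays, dropped the pair, normalized again by cyclic loess or quantiles, used a pseudocount of 16, left out the 15013 dimmest probe sets or used an intensity trend. Without the pair (no replicate block) the counts stayed at 0 lower and 0 higher. The median of the 8 genes, -0.66, ran from -0.96 to -0.043 when pairs or arrays were left out, and was -0.14 after cyclic loess and -0.19 after quantile normalization. Both Fabp5 probe sets kept their direction in all 11 alternatives, from -1.84 to -0.84 and from -2.43 to -1.38, with adjusted p from 0.179 to 0.917 and from 0.118 to 0.781 (limma). With pairs or arrays left out, Pparg ran from -0.32 to 0.26, with 0.21 without pair 3. The brighter Lpl probe set ran from -0.86 to 0.19, with 0.10 without pair 3, and was at 0.14 after cyclic loess and 0.035 after quantile normalization. The 2 bright Fabp4 probe sets ran from -0.044 to 1.06 and from -0.33 to 0.84, each lowest without pair 2 and highest without pair 3. The causes were not tested. The dimmest Fabp4 probe set has no value without the dimmest probe sets. No background measure was used, which limits what the dim probe sets of Fabp4 can show.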
